A study of Mus musculus with 44 samples.

Results

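The genes described are 9 CXC chemokines, Cxcl1, Cxcl2, Cxcl5, Cxcl9, Cxcl10, Cxcl12, Cxcl13, Cxcl14 and Cxcl16, and the receptor gene Ackr3. They were chosen by gene name, each matched 1 row of the deposited count table, and they are 10 of its 55486 genes. All 10 passed the filter on low counts, which left 16601 genes for the tests. Each was read as CPM (a gene's count per 1000000 counts of its sample) in every mouse, in control, WB1P and WB1P-Myc animals, and separately in CD26- and CD26+ fibroblasts.

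Fibroblasts were sorted from mammary glands and mammary tumors of En1-Cre;mTmG recipient mice, in which Cre is driven from the En1 locus, cells of the En1 lineage carry membrane GFP and all other host cells carry membrane tdTomato. Recipients had been transplanted with mammary tissue that, per the study's methods, had no WapCre in the controls, was WapCre;Brca1 F/F;Trp53 F/F (WB1P) in one tumor model, and was the same with the Col1a1 invCAG-Myc-IRES-Luc allele (WB1P-Myc) in the other. The donor alleles are therefore carried by the transplanted tissue and not by the host fibroblasts, the recipients' fat pads were not cleared of their own epithelium, and the controls differ from the tumor donors in their floxed alleles as well as in Cre. Cells negative for EpCAM, CD49f, CD31 and CD45 were split by CD26 (the peptidase DPP4) and by En1 lineage into 4 populations, which gave 44 polyA RNA libraries: 12 from 3 controls, 16 from 5 WB1P mice and 16 from 5 WB1P-Myc mice. Control fibroblasts are called normal fibroblasts (NFs) and those of the tumor models cancer-associated fibroblasts (CAFs). Each control label carries a pair of mouse numbers (44-46, 49-52 and 82-83), was counted as 1 mouse, and does not say whether animals were pooled. The study's figure legend counts 3 control mice, 5 WB1P mice and 4 WB1P-Myc mice, whereas the labels carry 5 WB1P-Myc mouse numbers. WB1P-Myc mice 23 and 69 carry the mark 8x8 in their labels, which do not explain it. The study's methods use such a size for advanced tumors, whereas the design text speaks of end-stage ones. The ages of the animals are not in the labels, and the design text calls the controls matched in age.

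The counts of a mouse's libraries were added within each CD26 class, which gave 25 sums: 3 CD26- and 3 CD26+ in controls, 5 and 4 in WB1P, and 5 and 5 in WB1P-Myc. WB1P mouse 10 has a single library here, of the CD26- class. A single library also made up the sums of WB1P mouse 12 in CD26+ cells and of WB1P-Myc mice 21 (CD26-), 67 (CD26+) and 95 (both classes). That of WB1P mouse 12 had the lowest depth, at 5790599 counts. A library held 5790599 to 15240328 counts and a sum up to 29498005. The fibroblast markers Pdgfra, Pdgfrb, Col1a1, Col1a2, Dcn and Lum were above 1 CPM in every sum. Values below are listed in a fixed order of mice: controls 44-46, 49-52 and 82-83, then WB1P 10, 12, 14, 35 and 93 (without 10 in CD26+ cells), then WB1P-Myc 21, 23, 67, 69 and 95.

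CXC chemokines are small secreted proteins with a pair of cysteines separated by 1 other residue near the N terminus. They bind receptors on leukocytes and other cells and set up gradients along which those cells move. Members with a Glu-Leu-Arg motif before the cysteines, such as CXCL1, CXCL2 and CXCL5, act on CXCR2 and attract neutrophils, and their genes are classic targets of NF-kappaB. CXCL9 and CXCL10 are induced by interferons and attract T and NK cells through CXCR3. CXCL12, which binds CXCR4, CXCL13, which binds CXCR5 on B cells, and CXCL14 are made more constitutively by stromal cells. CXCL16 is made as a membrane protein that is shed by ADAM10 and binds CXCR6. ACKR3 is an atypical receptor that takes up CXCL12 and CXCL11 without classic G protein signalling. CD26, the sorting marker, is itself a peptidase that trims the N terminus of several of these ligands, among them CXCL12 and CXCL10, so that the transcript levels given here do not describe the active protein.

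Of the 10 genes, 6 lie on chromosome 5, by the GRCm38 annotation. The neutrophil-attracting ligands lie close together, Cxcl5 at chr5:90759360-90761624, Cxcl1 at chr5:90891241-90893115 and Cxcl2 at chr5:90903871-90905938, all on the plus strand. Cxcl9 (chr5:92321347-92328079) and Cxcl10 (chr5:92346638-92348889) are neighbours on the minus strand, and Cxcl13 lies at chr5:95956951-95961068. The others are spread over the genome, with Cxcl12 at chr6:117168535-117181367, Cxcl16 at chr11:70453983-70459984, Cxcl14 at chr13:56288643-56296551 and Ackr3 at chr1:90203980-90216751. Cxcl10 overlaps Art3 and Cxcl16 overlaps Zmynd15, in both cases on the opposite strand. The libraries were stranded, but how strand was set in the counting is not given in the sources used here, so reads of the overlapping genes may be shared.

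RefSeq promoters on GRCm38.p6 were found for 8 of the 10 genes, all but Cxcl5 and Cxcl16, and the 250 bases before the annotated start were searched on both strands for the NF-kappaB (kappaB) consensus. It was present in 3 of the 8, Cxcl1, Cxcl2 and Cxcl10, against 7.25% of 32851 promoters of that length. The 3 with a match are shown. Cxcl1 and Cxcl2, whose levels ran together over the 25 sums described below (Spearman's rho 0.89), hold the same capital run. Whether the run bears on their levels was not tested. Capitals mark the kappaB matches, of which a pair overlaps in each of the longer runs. They come from chr5:90890995-90891244 (plus strand), chr5:90903649-90903898 (plus strand) and chr5:92348890-92349139 (minus strand).
Cxcl1: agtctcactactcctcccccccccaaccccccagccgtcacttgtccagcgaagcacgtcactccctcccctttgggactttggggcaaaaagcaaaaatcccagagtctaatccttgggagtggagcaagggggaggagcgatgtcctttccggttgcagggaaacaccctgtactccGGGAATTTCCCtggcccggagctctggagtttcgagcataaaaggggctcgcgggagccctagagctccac
Cxcl2: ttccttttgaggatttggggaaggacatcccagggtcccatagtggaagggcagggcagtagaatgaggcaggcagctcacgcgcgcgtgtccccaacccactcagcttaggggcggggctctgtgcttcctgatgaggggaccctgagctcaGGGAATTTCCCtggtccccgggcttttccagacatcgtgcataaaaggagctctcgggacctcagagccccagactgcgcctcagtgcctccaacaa
Cxcl10: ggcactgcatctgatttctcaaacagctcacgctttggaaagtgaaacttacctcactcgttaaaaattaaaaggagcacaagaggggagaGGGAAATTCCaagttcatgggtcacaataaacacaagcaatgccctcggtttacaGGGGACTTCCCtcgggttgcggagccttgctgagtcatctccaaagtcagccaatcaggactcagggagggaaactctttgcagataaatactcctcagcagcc
The run lies 71 to 61 bases before the start in Cxcl1 and 97 to 87 bases before it in Cxcl2. In Cxcl10 one match lies at 159 to 150 bases and the overlapping matches at 104 to 94 bases. The interferon response element core TTTCNNTTTC, searched on both strands, was present in Cxcl10 and Cxcl14, 2 of the 8, against 2.98% of all promoters. A match describes letters in the window and does not show that a factor bound there, and no match says only that these letters are not in it.

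Levels of different genes can be compared only per length, and so they were divided by the summed exon length as CPM per kb. That length joins all annotated exons of a gene, so a gene whose transcripts use only some of them reads too low. It was 8176 bases for Cxcl12 and 1827 for Cxcl14, and the CPM ranges of these genes overlapped in control CD26- cells. Cxcl1 was the highest of the 10 in 5 of the 6 groups, at 376 ± 148 CPM per kb in control CD26- cells (mean ± SD, n = 3) and 1024 ± 415 in WB1P CD26+ cells (n = 4). In WB1P-Myc CD26- cells Cxcl14 led at 699 ± 196 CPM per kb (n = 5), ahead of Cxcl1 at 577 ± 242, and the ranges of the mice overlapped. Ackr3 was second in CD26+ cells of controls (251 ± 117) and of WB1P mice (247 ± 23.4) and lower, behind Cxcl1 and Cxcl14, in those of WB1P-Myc mice (246 ± 48.1). Cxcl13 was the lowest in 4 of the 6 groups, at 2.67 ± 2.48 CPM per kb in control CD26- cells and 13.1 ± 15.6 in WB1P-Myc CD26- cells. Most neighbours in the order overlapped: the ranges were apart between Cxcl14 and Cxcl12 in control CD26- cells, between Ackr3 and Cxcl14 in control CD26+ cells, between Cxcl1 and Ackr3 and between Cxcl10 and Cxcl16 in WB1P CD26+ cells, and between Cxcl1 and Cxcl2 (CD26-) and Ackr3 and Cxcl2 (CD26+) in WB1P-Myc.

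**Figure D1:**
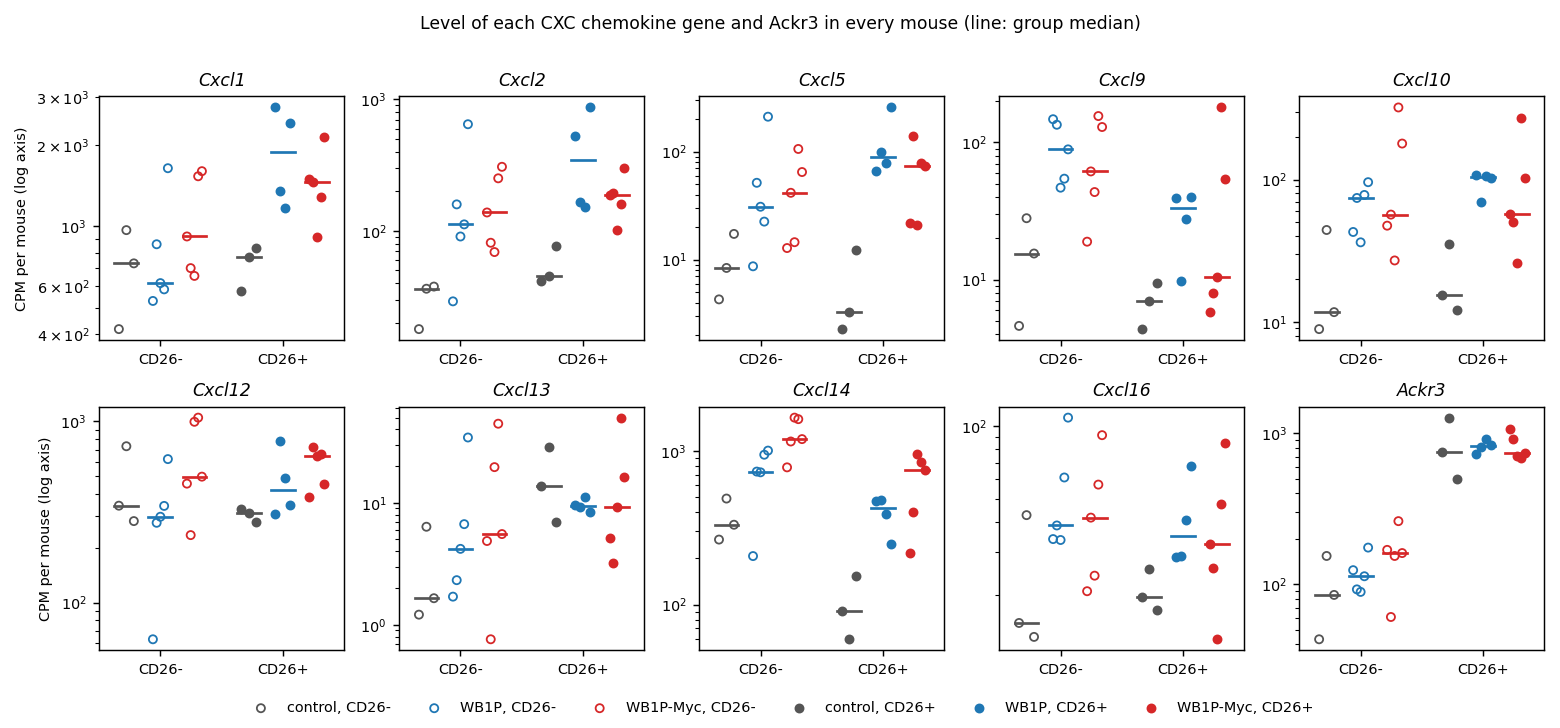
CPM of each gene (log axis) in every mouse, with open points for CD26- and filled points for CD26+ fibroblasts, coloured by group, and a line at the group median. In every panel the 3 control mice are grey. The control points of Cxcl5 sit between 2.27 and 17.3 CPM and those of the WB1P CD26+ mice between 65.8 and 257, while Ackr3 is high in the CD26+ class of all 3 groups.

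Whether CAFs and NFs differed was tested within each CD26 class with edgeR's quasi-likelihood test over all genes, and a gene was called at a Benjamini-Hochberg adjusted p under 0.05 over the 16601 genes. Among the 10 genes, 3 were called higher in WB1P CD26- cells against 17.6% of all genes (Cxcl2, Cxcl5 and Cxcl9), and 3 in WB1P-Myc CD26- cells against 19.1% (Cxcl2, Cxcl10 and Cxcl14). In CD26+ cells 5 were called higher in WB1P against 17.4% of all genes (Cxcl1, Cxcl2, Cxcl5, Cxcl10 and Cxcl14) and 4 in WB1P-Myc, again against 17.4% (Cxcl5, Cxcl9, Cxcl10 and Cxcl14). Neither edgeR nor DESeq2 called any of the 10 lower in these 4 comparisons. Of all genes, edgeR called 17.8%, 17.5%, 16.1% and 17.3% lower, and DESeq2 19.6%, 19.7%, 18.2% and 20.1%, in this order. DESeq2 called 6, 5, 6 and 6 of the 10 higher, in the same order, against 19.5%, 20.6%, 18.9% and 18.2% of all genes. The median log2 fold change of the 10 was 1.57, 2.02, 1.84 and 1.49, beside 0.00, 0.02, 0.00 and -0.01 over all genes tested. The WB1P and WB1P-Myc comparisons share their control mice, so they are not separate evidence, and with 3 control mice a single one of them could end most of the calls, as given at each gene. The p-values measure the spread between these mice, estimated over the sums of both CD26 classes together as if they were independent. In bulk RNA of a sorted population, fewer cells that make a transcript and less of it per cell cannot be told apart.

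**Figure D2:**
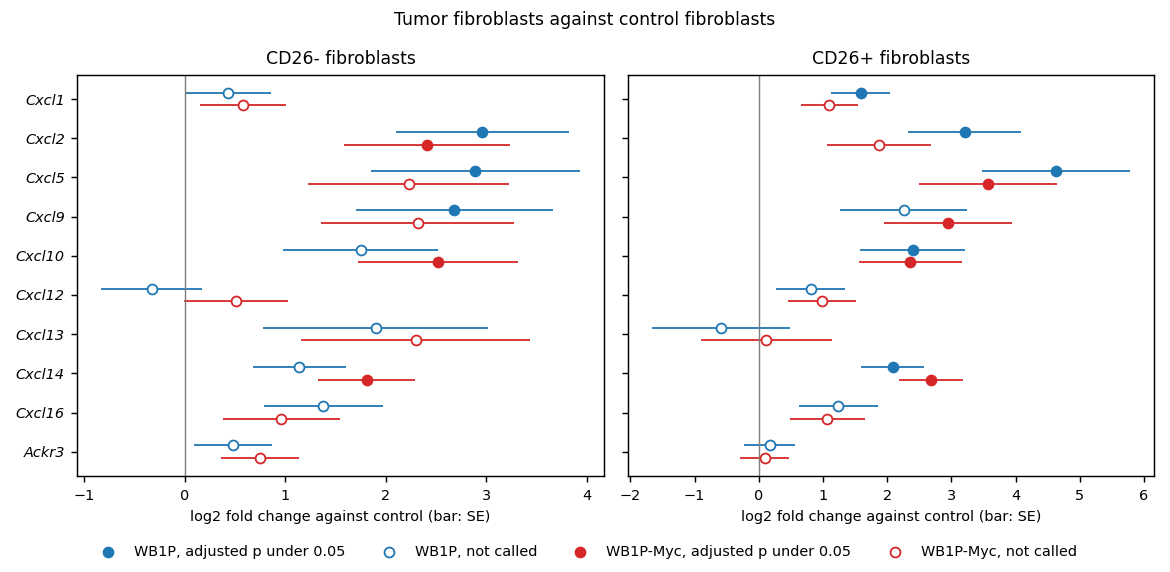
The log2 fold change of each gene against control, with its SE as the bar, in CD26- fibroblasts (left) and CD26+ fibroblasts (right), for WB1P and WB1P-Myc. Filled points are the 15 called changes, all to the right of 0; the largest is Cxcl5 in WB1P CD26+ cells at 4.63.

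Of the neutrophil-attracting ligands, Cxcl2 was higher in CAFs of WB1P mice in both CD26 classes and in CD26- CAFs of WB1P-Myc mice. In CD26- cells it stood at 17.9, 36.3 and 37.7 CPM in controls, at 29.1, 159, 90.6, 112 and 647 CPM in WB1P and at 138, 81.2, 69.0, 251 and 307 CPM in WB1P-Myc. All WB1P-Myc mice lay above all controls, whereas WB1P mouse 10 lay within the control range and mouse 93 far above the others. The log2 fold change was 2.96 ± 0.86 (SE, adjusted p = 0.00997) in WB1P and 2.41 ± 0.83 (adjusted p = 0.0268) in WB1P-Myc, by edgeR's quasi-likelihood test as in all that follows. Without mouse 93 the WB1P value was 1.75 and still called, and without control 44-46 it was 2.68 and not called (adjusted p = 0.059). The WB1P-Myc call was lost without mouse 69 (2.21, adjusted p = 0.0553) or 95 (2.13, adjusted p = 0.0574), and without control 44-46 (2.13, adjusted p = 0.116), 49-52 (2.55, adjusted p = 0.0709) or 82-83 (2.61, adjusted p = 0.0593).

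In CD26+ cells Cxcl2 stood at 41.2, 45.7 and 77.1 CPM in controls, 525, 165, 151 and 868 CPM in WB1P and 189, 193, 101, 160 and 303 CPM in WB1P-Myc, with no overlap of either tumor group with the controls. The log2 fold change in WB1P was 3.21 ± 0.88 (adjusted p = 0.00842), and it stayed called in every alternative, at 2.42 without mouse 93. In WB1P-Myc it was 1.88 ± 0.81 and missed the threshold (adjusted p = 0.0734), although it passed by DESeq2 (adjusted p = 0.0285).

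Cxcl5, the ligand closest to the human CXCL5 and CXCL6 pair, had the largest fold changes of the set in CD26+ cells and the widest spread between mice by the median over pairs of mice. Its level in CD26- cells was 4.28, 8.37 and 17.3 CPM in controls, 8.67, 51.5, 30.9, 22.5 and 211 CPM in WB1P and 12.8, 41.6, 14.5, 106 and 64.8 CPM in WB1P-Myc, and both tumor groups overlapped the controls. In CD26+ cells it stood at 2.27, 3.25 and 12.2 CPM in controls, 65.8, 99.3, 78.8 and 257 CPM in WB1P and 22.0, 141, 20.8, 78.8 and 73.0 CPM in WB1P-Myc, with every CAF value above every NF value. The CD26+ log2 fold changes were 4.63 ± 1.16 in WB1P (24.7-fold, adjusted p = 0.0046) and 3.57 ± 1.08 in WB1P-Myc (adjusted p = 0.0146). The WB1P value moved to 3.85 without mouse 93 and 5.79 without control 82-83 and stayed called. The WB1P-Myc call was lost without control 44-46 (3.19, adjusted p = 0.0725) or 49-52 (3.29, adjusted p = 0.07) and was 4.74 without 82-83. In CD26- cells the WB1P value was 2.89 ± 1.04 (adjusted p = 0.0336) and the WB1P-Myc value 2.23 ± 1.00 (adjusted p = 0.0851). The former rested on single mice: it was 1.58 without mouse 93 (adjusted p = 0.135), 2.53 without control 44-46 (adjusted p = 0.127) and 2.79 without 49-52 (adjusted p = 0.111), and 3.59 without 82-83, still called.

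Cxcl1, the most abundant ligand, was already high in NFs. Its level in CD26+ cells was 578, 773 and 831 CPM in controls, 2755, 1350, 1172 and 2406 CPM in WB1P and 1500, 1460, 910, 1285 and 2139 CPM in WB1P-Myc, and no CAF value fell within the NF range. It was higher by a log2 fold change of 1.59 ± 0.46 in WB1P (adjusted p = 0.0114), a call lost without control 44-46 (1.44, adjusted p = 0.0546), and by 1.10 ± 0.44 in WB1P-Myc, which missed the threshold (adjusted p = 0.0552). In CD26- cells the values were 417, 969 and 730 CPM in controls, 530, 859, 617, 585 and 1642 CPM in WB1P and 918, 701, 656, 1533 and 1601 CPM in WB1P-Myc. There the groups overlapped, and neither difference was called.

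Cxcl9 and Cxcl10 are the interferon-inducible ligands. In CD26- cells Cxcl9 stood at 4.61, 28.0 and 15.5 CPM in controls, 147, 134, 46.7, 54.3 and 88.7 CPM in WB1P and 18.9, 61.3, 43.4, 155 and 129 CPM in WB1P-Myc. The WB1P mice all lay above the controls, and WB1P-Myc mouse 21 lay among them. The log2 fold changes were 2.68 ± 0.98 (adjusted p = 0.0362) and 2.32 ± 0.96 (adjusted p = 0.0614). The WB1P call was lost without any one of 6 mice: WB1P 10 (2.48, adjusted p = 0.0597), 12 (2.50, adjusted p = 0.0656) or 93 (2.64, adjusted p = 0.0502), or control 44-46 (2.24, adjusted p = 0.147), 49-52 (3.35, adjusted p = 0.0518) or 82-83 (2.67, adjusted p = 0.0978).

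In CD26+ cells Cxcl9 stood at 4.37, 7.03 and 9.40 CPM in controls, 39.5, 9.86, 27.5 and 39.7 CPM in WB1P and 5.79, 7.97, 10.5, 179 and 53.9 CPM in WB1P-Myc. Mice 69 and 95 carried the WB1P-Myc values, and mice 21 and 23 lay within the control range. The WB1P-Myc log2 fold change of 2.95 ± 1.00 (adjusted p = 0.0269) was 1.56 without mouse 69 (adjusted p = 0.134), and the call was also lost without control 44-46 (2.70, adjusted p = 0.0984), 49-52 (2.95, adjusted p = 0.0787) or 82-83 (3.28, adjusted p = 0.0573). The WB1P value, in which no mouse overlapped a control, was 2.26 ± 0.99 (adjusted p = 0.0808) and was called by DESeq2 (adjusted p = 0.04).

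Cxcl10 shares the receptor CXCR3 with Cxcl9. Among CD26- cells it stood at 8.89, 44.2 and 11.7 CPM in controls, 42.8, 74.2, 36.2, 77.9 and 95.8 CPM in WB1P and 47.4, 56.7, 27.0, 321 and 179 CPM in WB1P-Myc, and control 49-52 overlapped both tumor groups. Among CD26+ cells it stood at 15.5, 35.3 and 12.2 CPM in controls, 107, 69.6, 106 and 103 CPM in WB1P and 57.1, 50.7, 25.7, 269 and 102 CPM in WB1P-Myc. All WB1P CD26+ mice lay above the controls, and of the WB1P-Myc mice only 67 did not.

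The CD26+ log2 fold changes of Cxcl10 were 2.40 ± 0.82 in WB1P (adjusted p = 0.0277) and 2.36 ± 0.80 in WB1P-Myc (adjusted p = 0.026), and the CD26- ones 1.75 ± 0.77 in WB1P (adjusted p = 0.081) and 2.52 ± 0.80 in WB1P-Myc (adjusted p = 0.0178). The WB1P CD26+ call was lost without mouse 12 (2.35, adjusted p = 0.0593) or 35 (2.34, adjusted p = 0.0504), or control 44-46 (2.21, adjusted p = 0.103) or 82-83 (2.14, adjusted p = 0.0986). The WB1P-Myc CD26+ call was lost without mouse 69 (1.61, adjusted p = 0.0554), or control 44-46 (2.18, adjusted p = 0.0978) or 82-83 (2.11, adjusted p = 0.0976), and the value was 2.95 without control 49-52. The WB1P-Myc CD26- call was lost without control 44-46 (2.14, adjusted p = 0.0965) or 82-83 (2.23, adjusted p = 0.0812), and the value ran from 1.80 without mouse 69 to 3.59 without control 49-52, both called. Conversely, the WB1P CD26- value was 2.82 without control 49-52 and was then called (adjusted p = 0.0285).

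Cxcl14, a stromal and epithelial chemokine whose receptor is debated, was called higher in CAFs in 3 of the 4 comparisons. In CD26+ cells it stood at 90.8, 59.5 and 154 CPM in controls, 470, 476, 386 and 248 CPM in WB1P and 216, 400, 958, 846 and 755 CPM in WB1P-Myc, with every CAF value above every NF value. The log2 fold changes were 2.09 ± 0.49 in WB1P (adjusted p = 0.00311) and 2.68 ± 0.50 in WB1P-Myc (6.41-fold, adjusted p = 0.000484). In CD26- cells it stood at 265, 490 and 331 CPM in controls, 207, 734, 726, 945 and 1005 CPM in WB1P and 782, 1152, 1647, 1610 and 1194 CPM in WB1P-Myc. There the WB1P-Myc mice all lay above the controls (1.81 ± 0.48, adjusted p = 0.00526), while WB1P mouse 10 lay below them, and the WB1P difference of 1.14 ± 0.46 missed the threshold (adjusted p = 0.057). It was called without mouse 10 (1.38, adjusted p = 0.0123). Its CD26+ calls held in every alternative, and its CD26- call in WB1P-Myc in all but the study's fold limit (an absolute log2 fold change over 2).

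Cxcl12, the ligand of CXCR4 and ACKR3, was not called in any comparison with controls. Its level in CD26- cells was 343, 730 and 282 CPM in controls, 62.8, 276, 298, 342 and 620 CPM in WB1P and 454, 236, 996, 1050 and 496 CPM in WB1P-Myc. Its level in CD26+ cells was 330, 312 and 280 CPM in controls, 307, 782, 486 and 346 CPM in WB1P and 385, 721, 648, 662 and 452 CPM in WB1P-Myc. The CD26+ WB1P-Myc mice did not overlap the controls, yet the log2 fold change of 0.99 ± 0.53 missed the threshold (adjusted p = 0.148). It was called when only the compared groups were fitted (0.98, adjusted p = 0.00824) and with single libraries as units (adjusted p = 0.0209). The other values were -0.33 ± 0.50 in WB1P CD26-, 0.51 ± 0.52 in WB1P-Myc CD26- and 0.81 ± 0.54 in WB1P CD26+ cells. The first turned to 0.21 without control 49-52 (adjusted p = 0.82), so that its direction was not fixed by these mice.

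Cxcl16, the membrane-bound ligand of CXCR6, was likewise not called. Among CD26- cells it stood at 15.3, 42.7 and 13.4 CPM in controls, 34.0, 38.7, 33.7, 61.1 and 108 CPM in WB1P and 20.7, 41.7, 24.0, 57.1 and 91.4 CPM in WB1P-Myc, and in CD26+ cells at 19.6, 25.5 and 17.3, then 28.8, 28.9, 40.9 and 67.9, then 32.3, 25.8, 13.1, 47.6 and 84.9 CPM. Only the WB1P CD26+ mice were clear of the controls. The log2 fold changes were between 0.96 ± 0.58 (WB1P-Myc CD26-, adjusted p = 0.202) and 1.38 ± 0.59 (WB1P CD26-, adjusted p = 0.0741), and the latter was 2.12 and called without control 49-52 (adjusted p = 0.033), the one control with a high value.

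Cxcl13, the B cell attractant, was near the bottom of the range and not called. In CD26- cells it stood at 1.21, 6.36 and 1.65 CPM in controls, 1.70, 2.32, 4.19, 6.68 and 34.3 CPM in WB1P and 4.86, 0.760, 19.6, 44.5 and 5.54 CPM in WB1P-Myc. Among CD26+ cells it stood at 13.8, 28.7 and 7.02 CPM in controls, 9.67, 9.18, 11.1 and 8.35 CPM in WB1P and 5.12, 3.21, 9.27, 49.9 and 16.4 CPM in WB1P-Myc. In CD26- cells mouse 93 stood above the other WB1P mice and mice 67 and 69 above the other WB1P-Myc mice, and all groups overlapped the controls in both classes.

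Ackr3, the scavenging receptor, did not pass the test between CAFs and NFs in any of the 4 comparisons but differed between the CD26 classes. Its level in CD26- cells was 43.2, 154 and 85.0 CPM in controls, 124, 92.5, 89.0, 113 and 175 CPM in WB1P and 169, 60.7, 154, 262 and 161 CPM in WB1P-Myc. In CD26+ cells it stood at 755, 1271 and 499 CPM in controls, 730, 815, 922 and 835 CPM in WB1P and 1062, 916, 708, 691 and 739 CPM in WB1P-Myc. Its lowest CD26+ value was above the highest CD26- value, so that the classes did not overlap in any group.

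Whether the CD26 classes differed was tested within each group of mice, first with 1 term per group and then with the mouse as a block, since both classes came from the same 12 mice. Without the block, Ackr3 was the only one of the 10 called in controls, where 2.67% of all genes were called higher, and in WB1P-Myc, where 9.29% were. In WB1P Ackr3 and Cxcl1 were called, where 13.0% of all genes were called higher. The log2 difference of Ackr3, CD26+ over CD26-, was 3.21 ± 0.46 in controls (9.26-fold, adjusted p = 0.000153), 2.90 ± 0.36 in WB1P (7.49-fold, adjusted p = 5.73e-06) and 2.55 ± 0.35 in WB1P-Myc (5.86-fold, adjusted p = 1.45e-05). It was higher in CD26+ cells in 3 of 3, 4 of 4 and 5 of 5 mice, with ratios within a mouse of 5.86 to 17.5, 4.78 to 9.15 and 2.64 to 15.1. In a fit of the control sums alone the control call was lost (3.20, adjusted p = 0.0574).

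With the mouse as a block, more calls in both directions were made, over all genes too. In controls 3 of the 10 were called against 11.5% of all genes, in WB1P 7 against 35.1% and in WB1P-Myc 4 against 32.2%. WB1P mouse 10, with 1 class, adds nothing to a blocked difference. Cxcl14 was lower in CD26+ cells in all 12 mice, with blocked log2 differences of -1.81 in controls (adjusted p = 0.00489), -1.03 in WB1P (adjusted p = 0.0159) and -0.98 in WB1P-Myc (adjusted p = 0.0119). Without the block these were -1.74 (adjusted p = 0.0535), -0.79 and -0.88, and none was called. Cxcl14 thus ran opposite to Ackr3 across the classes.

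Cxcl9 was also lower in CD26+ cells, in 3 of 3, 4 of 4 and 4 of 5 mice, by blocked log2 differences of -1.41 in WB1P (adjusted p = 0.0183) and -1.35 in WB1P-Myc (adjusted p = 0.018). Mouse 69 was the exception in WB1P-Myc, with a ratio of 1.15, and the unblocked difference there ran from -0.51 with it to -1.52 without it. Cxcl10 did not follow Cxcl9: it was higher in CD26+ cells in 4 of 4 WB1P mice, by 0.61 with the block (adjusted p = 0.0235), and in 1 of 5 WB1P-Myc mice. In controls Cxcl13 was higher in CD26+ cells in 3 of 3 mice, with ratios of 4.26 to 11.4 and a blocked log2 difference of 2.62 ± 0.68 (adjusted p = 0.0234), against 2.48 ± 1.22 without the block (adjusted p = 0.368). In the tumor groups its ratio went from 0.243 to 4.23.

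Among the neutrophil-attracting ligands, Cxcl1 was higher in CD26+ cells in 4 of 4 WB1P mice, by 1.28 ± 0.39 without the block (adjusted p = 0.0169) and 1.20 with it (adjusted p = 0.000949), and in 4 of 5 WB1P-Myc mice, by 0.65 with the block (adjusted p = 0.0196). The unblocked WB1P call was lost without mouse 12 (1.09, adjusted p = 0.1). Cxcl2 was higher in CD26+ cells in 4 of 4 WB1P mice, by a blocked 0.96 (adjusted p = 0.0127), and in 3 of 5 WB1P-Myc mice. Cxcl5 was higher in 4 of 4 WB1P mice, by a blocked 1.14 (adjusted p = 0.016), and in 4 of 5 WB1P-Myc mice, but lower in 3 of 3 controls, where the ratios were 0.389 to 0.706. Cxcl12 was higher in CD26+ cells in 0 of 3 controls, 3 of 4 WB1P and 1 of 5 WB1P-Myc mice. It was not called between the classes in any group, with or without the block.

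**Figure D3:**
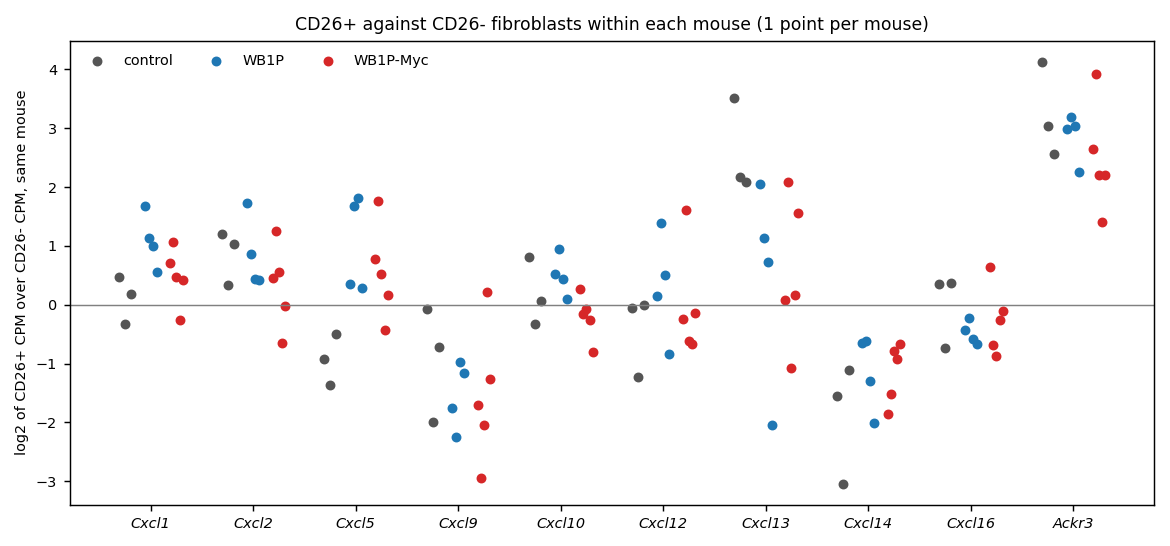
The log2 ratio of CPM in CD26+ over CD26- fibroblasts of the same mouse, 1 point per mouse, coloured by group, with a line at 0 for no difference. All 12 points of Ackr3 lie above 0 and all 12 of Cxcl14 below it, and the 3 control points of Cxcl5 lie below 0 while its 4 WB1P points lie above.

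Whether the CD26 difference itself changed between the groups was tested as a difference of differences. No gene of the 10 was called by edgeR in WB1P against control (1.86% of all genes called), in WB1P-Myc against control (1.16%) or in WB1P-Myc against WB1P (0%), none had an unadjusted p under 0.05, and DESeq2 called none. With the mouse as a block Cxcl5 was called in WB1P against control, where 5.13% of all genes were, at a log2 difference of differences of 1.97 ± 0.52 (adjusted p = 0.0459), against 1.73 without the block.

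The tumor models were then compared with each other. By edgeR none of the 10 differed between WB1P-Myc and WB1P in CD26- cells, where 0.512% of all genes were called, or in CD26+ cells, where 0% were. None had an unadjusted p under 0.05, and DESeq2 called none. The ranges of the tumor groups overlapped for all 10 genes in both classes, and the spread between mice of one model was large, so that this does not show the models to be alike.

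En1 lineage was compared between single libraries. No member was called by edgeR between En1 lineage positive and negative cells of the CD26- class (0.00642% of all genes called) or the CD26+ class (0.0128%), none had an unadjusted p under 0.05, and DESeq2 called none. The median ratio of En1 positive over negative cells within a mouse was between 0.654 (Cxcl5, CD26-) and 1.39 (Cxcl13, CD26+) over the genes. In CD26- cells Cxcl9 was higher in the En1 positive library in 9 of 10 mice, with a median ratio of 1.25, and Cxcl12 was higher in it in 1 of 10, with a median of 0.804.

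The spread between single mice was large beside that between libraries. Between a pair of libraries of the same mouse and CD26 class (19 pairs), the median absolute log2 difference was 0.10 for Cxcl1 and Ackr3 and at most 0.44, for Cxcl13. Between a pair of mice of the same group (42 pairs) it was 0.44 for Ackr3, 0.59 for Cxcl14, 0.62 for Cxcl1 and 1.68 for Cxcl5, and the widest pair differed by 5.16, for Cxcl13. Libraries of one mouse are not independent, so that they were summed per mouse and CD26 class for every main test but the En1 one. The unblocked fit of the 25 sums still treated both sums of a mouse as independent. This bears on the tests between CD26 classes and of their difference of differences. It also bears on the tests against controls, since all groups shared 1 estimate of the spread.

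**Figure D4:**
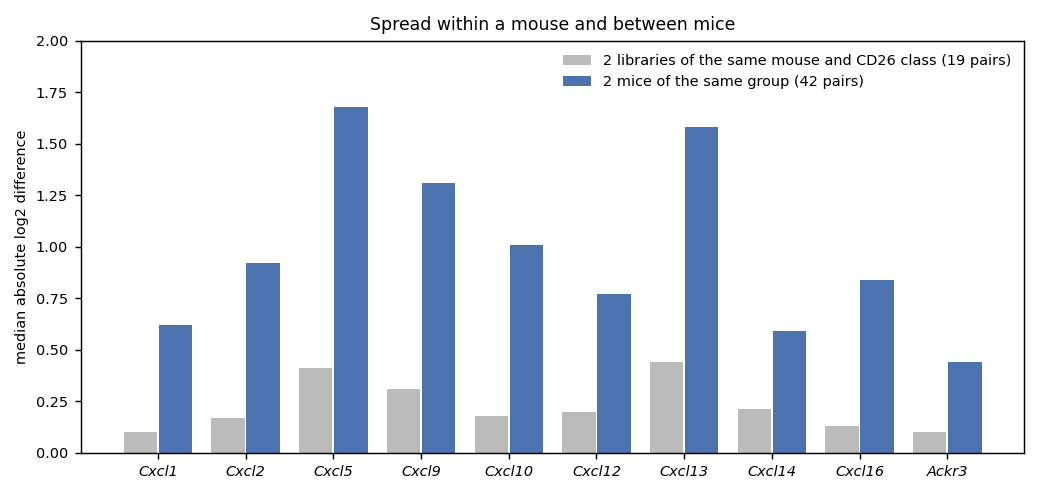
For each gene, the median absolute log2 difference in CPM between libraries of the same mouse and CD26 class (grey, 19 pairs) and between mice of the same group (blue, 42 pairs). The blue bar is the taller one for all 10 genes, from 0.44 for Ackr3 to 1.68 for Cxcl5.

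The same mice were often extreme for several genes. WB1P mouse 93 was the highest of its group in CD26- cells for 9 of the 10 genes but in CD26+ cells for 4 of 10, and mouse 10 was the lowest for 6. WB1P-Myc mouse 69, marked 8x8, was the highest in CD26- cells for 6 genes. Among controls 49-52 was the highest for 8 genes and 44-46 the lowest for 8, both in CD26- cells. The highest mouse was the same in both classes for 6 of 10 genes in controls, 3 of 10 in WB1P and 7 of 10 in WB1P-Myc. Without mice 23 and 69 only Cxcl14 was called in each of the WB1P-Myc comparisons with controls. The share of all genes called without them was not computed.

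Marker genes of other cells were read in the same sums. Pericyte genes (Rgs5, Cspg4, Kcnj8, Abcc9, Notch3 and Mcam, all 6 above 1 CPM in every sum) added up to 210 to 400 CPM in control CD26- cells, 1808 to 5277 CPM in WB1P CD26- cells and 2536 to 10449 CPM in WB1P-Myc CD26- cells, beside 145 to 325 CPM in CD26+ cells of all groups. In control CD26+ cells they added up to 162 to 199 CPM, below the control CD26- range. They therefore moved with the CAF and NF comparison in the CD26- class and with the CD26 comparison in all groups, by less in controls than in CAFs. Their part in those results was not tested. WB1P mouse 10 and WB1P-Myc mouse 21 had the highest pericyte sums of their groups. In CD26- cells mouse 10 was the highest of its group for Cxcl9 and the lowest for 6 of the 10 genes, and mouse 21 was the highest for none and the lowest for 4.

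Immune genes (6 of 6 counted) added up to 9.00 to 15.4 CPM in control, 4.26 to 27.3 in WB1P and 13.8 to 45.5 in WB1P-Myc CD26- cells. In CD26+ cells they added up to 9.63 to 25.4, 40.2 to 104 and 12.8 to 209 CPM, so that the WB1P mice were clear of the controls. Macrophage genes (6 of 6) added up to 9.37 to 17.4, 13.3 to 74.8 and 12.7 to 111 CPM in CD26- cells and to 7.02 to 13.2, 14.0 to 26.5 and 10.5 to 28.7 CPM in CD26+ cells. Of single markers, Csf1r and C1qb were called higher in CAFs in all 4 comparisons, Cd3e in both CD26+ ones, and S100a9 and Csf3r in both CD26- ones, with Csf3r also in WB1P CD26+ cells. Some went the other way. The macrophage gene Cd68 was lower in CD26+ CAFs, by log2 fold changes of -1.07 in WB1P (adjusted p = 0.037) and -1.07 in WB1P-Myc (adjusted p = 0.0268). The immune gene Cd79a was called lower in WB1P CD26- CAFs (-1.93, adjusted p = 0.0109). The neutrophil genes S100a9 and Retnlg were at 0 in all controls, and the sum of the 4 neutrophil genes reached 22.4 CPM, in WB1P CD26- mouse 35. Mouse 93, the highest for Cxcl2 and Cxcl5, was at 10.1 CPM in that class. Epithelial genes added up to 0.357 to 174 CPM, endothelial genes to 8.16 to 81.5 CPM, Schwann cell genes to 3.69 to 57.4 CPM and lymph node stroma genes to 25.6 to 226 CPM, with Ccl21a at 0 in every group. Immediate early and heat shock genes, which can rise during tissue digestion, added up to 6607 to 19924 CPM in controls and 3716 to 11791 CPM in CAFs. Control 49-52 had the highest of these sums among controls in both classes, at 19924 CPM in CD26- and 14702 CPM in CD26+ cells. These markers moved with some of the comparisons above, and their part in the results was not tested.

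The other CXC ligands were counted as a list of 6, of which 4 passed the filter. Cxcl3, a further neutrophil-attracting ligand, was called higher in WB1P CD26+ cells, with medians of 1.98 CPM in controls and 81.9 CPM in WB1P and a range of 23.2 to 331 CPM in the latter. Cxcl11, another CXCR3 ligand, was called higher in CAFs in 3 of the 4 comparisons but at low levels, with group medians of 0.0384 to 1.56 CPM, and Pf4 in WB1P-Myc CD26- cells at a median of 0.532 CPM. Cxcl15, Cxcl17 and Ppbp made up the rest of the list and none of them was called.

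Of 9 other chemokine receptors 6 passed the filter. The scavenging receptors Ackr1, Ackr2 and Ackr4 had group medians that were higher in CD26+ than in CD26- cells in all 3 groups, as for Ackr3. Ackr2, which clears inflammatory CC chemokines, had medians of 10.6 CPM (CD26-) and 68.4 CPM (CD26+) in controls, 0.786 and 29.7 CPM in WB1P and 2.57 and 39.8 CPM in WB1P-Myc, and the CD26 difference was called in all 3 groups. It was lower in CD26- CAFs by log2 fold changes of -3.82 ± 0.53 in WB1P (adjusted p = 1.09e-05) and -2.01 ± 0.48 in WB1P-Myc (adjusted p = 0.00284). Cxcr4, the signalling receptor for CXCL12, was called lower in CD26+ than in CD26- CAFs, with medians of 2.21 against 6.49 CPM in WB1P and 1.69 against 13.7 CPM in WB1P-Myc. Cxcr6, the receptor for CXCL16, was called higher in CAFs in all 4 comparisons, from medians of 0.0384 to 0.0732 CPM in controls to 0.371 to 7.49 CPM in CAFs.

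Of 8 enzymes that process or shed chemokines 7 passed the filter. Adam10, which sheds CXCL16, was higher in CAFs in all 4 comparisons, by log2 fold changes of 0.55 to 0.78, with medians of 84.2 and 101 CPM in CD26- and CD26+ NFs and 130 to 150 CPM in CAFs. Adam17 of the same list was called lower in WB1P-Myc CAFs. Its log2 fold change was -0.72 ± 0.16 in CD26- cells (adjusted p = 0.00162) and -0.44 ± 0.16 in CD26+ cells (adjusted p = 0.0366). Mmp9, a gelatinase that can cleave several CXC ligands, was called higher in all 4, from medians of 0.474 and 0.814 CPM in controls to between 32.7 and 484 CPM in CAFs. Anpep, an aminopeptidase, was higher in CD26+ than in CD26- cells in all 3 groups, with medians of 430 against 171 CPM in controls. Dpp4, the gene of the sorting marker, had medians of 537, 391 and 394 CPM in CD26+ cells and 6.58, 5.82 and 6.95 CPM in CD26- cells, in controls, WB1P and WB1P-Myc.

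Of 12 genes of NF-kappaB and IL-1 signalling, all tested, 2 were called higher in WB1P CD26- cells, 4 in WB1P-Myc CD26- cells and 5 in each of the CD26+ comparisons, beside 17.6%, 19.1%, 17.4% and 17.4% of all genes. None was called lower, beside 17.8%, 17.5%, 16.1% and 17.3% of all genes. Tnfaip3, an inhibitor that NF-kappaB itself induces, was called in all 4, with medians of 121 and 130 CPM in CD26- and CD26+ NFs and 404 to 552 CPM in CAFs. Nfkbiz, which encodes a nuclear co-regulator of secondary NF-kappaB targets, was also called in all 4, from medians of 180 and 415 CPM to 481 to 881 CPM. The genes of the receptors IL-1R1 and IL-1RAP were not among those called.

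Of 12 genes of interferon signalling, all tested, 3, 4, 1 and 4 were called higher in WB1P CD26-, WB1P-Myc CD26-, WB1P CD26+ and WB1P-Myc CD26+ cells, beside the same shares of all genes. Isg15, an ubiquitin-like interferon target, was called in all 4, with medians of 7.57 and 6.95 CPM in CD26- and CD26+ NFs and 33.1 to 85 CPM in CAFs. Ifngr1, a chain of the interferon gamma receptor, was the gene called lower, in CD26- CAFs of both models, by -0.69 ± 0.14 in WB1P (adjusted p = 0.000536) and -0.42 ± 0.14 in WB1P-Myc (adjusted p = 0.0209). Of all genes, 17.8% and 17.5% were called lower there.

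The genes whose levels ran close to each of the 10 over the 25 sums were found among 10433 genes with a mean of at least 5 CPM, by Spearman's rho. The sums share mice, groups and depth, so these are descriptions. Cxcl1 ran close to Arl6ip5 (0.91), Cxcl2 most like Cxcl3 (0.94), Cxcl5 like Csf3 (0.90) and Saa3 (0.87), Cxcl9 like Tapbp (0.90) and Ifi47 (0.88), and Cxcl10 like Rtp4 (0.92) and Dhx58 (0.89). Cxcl16 ran most like Gbp3 (0.88), Cxcl12 like Slc1a3 and Steap4 (0.86 each), Cxcl14 like Lgmn (0.84) and Ackr3 like Clip1 (0.94) and Ildr2 (0.93), whereas Cxcl13 reached no more than 0.74 (Ttc39c). Between the 10 genes, rho was 0.89 for Cxcl1 and Cxcl2, 0.86 for Cxcl2 and Cxcl5, 0.80 for Cxcl10 and Cxcl16 and 0.63 for Cxcl9 and Cxcl10. Cxcl10 ran closer to Cxcl2 (0.81), Cxcl5 (0.78) and Cxcl1 (0.73) than to Cxcl9. For Cxcl9, rho was 0.72 with Cxcl16 and 0.64 with Cxcl14. Ackr3 had rho of -0.39 with Cxcl9, -0.38 with Cxcl14 and 0.33 with its ligand Cxcl12.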

How the data were processed

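RNA was sequenced from the 44 sorted fibroblast populations described above. Per the submitters' processing notes the reads were aligned with HISAT2 2.2.1 to GRCm38. The counter, the annotation and the strand setting are not given in the sources used here. The deposited values are raw counts per gene, which the authors did not normalize, in 55487 lines. A single line (1) has an empty gene name, with a total of 0 counts, and was left out. Each of the 44 columns matched 1 sample's label.

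Counts were summed per mouse and CD26 class, CD26- being the En1+ and double-negative and CD26+ the CD26+ and double-positive libraries. No pair of libraries held identical values. CPM used the total count. The 25 sums in 6 groups were fitted together in R 4.3.3 with edgeR 4.0.16 (filterByExpr, TMM, glmQLFit and glmQLFTest), and p-values were Benjamini-Hochberg adjusted over the 16601 genes tested. En1 lineage was tested on single libraries in 12 groups over 15584 genes. The mouse numbers pair the sums, since both classes come from the same animal, and a mouse's CD26- and CD26+ deviations from the respective means correlated at 0.237 to 0.668 (median 0.444, 12 mice). The study's own limit on fold change was an alternative here. Other alternatives were DESeq2 1.42.0 as a test and for its size factors, no filter on low counts, the mouse as a block, single libraries as units, a fit of the compared groups alone, the WB1P-Myc mice marked 8x8 left out, and leaving out every mouse once. The scripts were tested on simulated data. Gene coordinates, names and promoters came from the annotation of GRCm38 and from RefSeq, and figures were drawn with matplotlib 3.10.9.

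The 10 genes and the gene lists were chosen with earlier results of these data known. The genes named were all 10, the members of the lists that were called in a described comparison, and the 2 genes most like each of the 10, of which not all are printed. Some items are not reported here. Depth was 5790599 to 15240328 counts per library, so that counting error matters most for genes near or below 1 CPM.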

Additional observations from a re-analysis of the deposited data

Results flagged for a closer look

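In 40 groups of 4 or 5 mice (10 genes in the 4 tumor groups), the gap between the highest or lowest mouse and its nearest neighbour was compared with the range of the group. In 6 of them it was wider than Dixon's 95% critical value. The chance rate of about 1 in 20 holds for independent groups of normally distributed values. Here the groups shared mice and CPM was not put on a log scale, so no excess over chance is claimed. In WB1P CD26- cells mouse 93 was apart as the highest for Cxcl2 (gap 0.789 of the range, 647 CPM against at most 159), Cxcl5 (0.788, 211 CPM against at most 51.5) and Cxcl13 (0.847, 34.3 CPM against at most 6.68). In WB1P-Myc CD26+ cells mouse 69 was apart as the highest for Cxcl9 (0.722, 179 CPM against at most 53.9) and Cxcl13 (0.718, 49.9 CPM against at most 16.4). In WB1P CD26+ cells mouse 14 was apart as the lowest for Cxcl10 (0.888), at 69.6 CPM against 103 to 107 CPM in the others.

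Cxcl5 was lower in CD26+ than in CD26- cells in 3 of 3 controls and higher in 4 of 4 WB1P mice. With the mouse as a block the log2 difference of these differences was 1.97 ± 0.52 (edgeR, adjusted p = 0.0459). Without the block it was 1.73 and not called. The control values were 2.27 to 17.3 CPM.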

How the results depend on the processing

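For the 45 changes of the 10 genes whose log2 values were recomputed, 870 alternative values were obtained: 764 kept the direction and the side of the threshold, 42 lost a call, 63 gained one and 1 changed direction. Of 19 called changes, 7 were called in every refit (Cxcl2 and Cxcl5 in WB1P CD26+ cells, Cxcl14 in 3 comparisons with controls, and Ackr3 between CD26 classes in WB1P and in WB1P-Myc), and none changed direction. The study's fold limit, which refits nothing, also ended the calls of Cxcl14 in WB1P-Myc CD26- cells, of Cxcl1 in WB1P CD26+ cells and of Cxcl1 between CD26 classes in WB1P. The change of direction was that of Cxcl12 in WB1P CD26- cells, at -0.81 to 0.21 with 1 mouse left out.

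DESeq2's test gave 6 in WB1P CD26- cells, 5 in WB1P-Myc CD26- cells and 2 between CD26 classes in controls, where it called 6.01% of all genes in either direction. Single libraries as units, which treat libraries of a mouse as independent, gave 7, 7, 8 and 8 against controls (CD26- WB1P and WB1P-Myc, then CD26+) and 2 between CD26 classes in controls and 2 in WB1P-Myc. With DESeq2's size factors it was 2 between CD26 classes in controls and with only the compared groups fitted 0. Without mice 23 and 69 it was 1 in each class of WB1P-Myc. The study's fold limit left 1 between CD26 classes in WB1P, 2 in WB1P-Myc CD26- and 4 in WB1P CD26+ cells. With the replicate block, which is a true pairing, 3, 7 and 4 were called between CD26 classes in controls, WB1P and WB1P-Myc and 1 in the difference of differences between WB1P and control. It called no other difference of differences.

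With 1 mouse left out, 0 to 4 of the 10 were called in WB1P and 1 to 4 in WB1P-Myc CD26- cells, and 3 to 6 and 1 to 6 in CD26+ cells, the lowest each time without control 44-46. Between CD26 classes it was 1 to 2 in controls, 1 to 3 in WB1P and 1 to 1 in WB1P-Myc, and the remaining comparisons gave 0 to 0. The share of all genes called was not computed for these fits, and the causes were not tested. Fitting only the compared groups ended the calls of Cxcl5 in WB1P CD26- (2.88, adjusted p = 0.066), Cxcl10 in WB1P-Myc CD26- (2.52, adjusted p = 0.0677) and Cxcl9 in WB1P-Myc CD26+ cells (2.94, adjusted p = 0.0837) and of Cxcl1 between CD26 classes in WB1P (1.29, adjusted p = 0.051), and it gained calls for Cxcl1, Cxcl2 and Cxcl12 in WB1P-Myc CD26+, Cxcl9 and Cxcl16 in WB1P CD26+, Cxcl10 in WB1P CD26- and Cxcl9 in WB1P-Myc CD26- cells, and for Cxcl9 between CD26 classes in WB1P (adjusted p of 0.00767 to 0.0498). The comparisons with controls rest on 3 control mice, labelled with number pairs, and counting error adds to the spread of the lowest values, such as that of Cxcl13 at 0.760 CPM.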
